A study of Homo sapiens with 9 samples.

Results

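AOX1, LRRK2, SCML4, RNF11 and CD28 are 5 genes whose transcripts were scarce in untreated Ramos cells and more abundant after treatment with a GSK-3 inhibitor. They were chosen by the measurements described here, as genes with some of the steepest increases in the read count table, either over 0 h or between 3 h and 6 h. Their time courses are therefore given as description, with no test on the members themselves. They are 5 of the 15847 genes with enough reads to be tested, out of 60234 gene identifiers, and all 5 passed the filter on low counts, AOX1, LRRK2 and CD28 through their treated libraries, since each had under 10 reads in at least 1 library at 0 h. Ramos is an established B cell line from an EBV-negative Burkitt lymphoma. The cells were either untreated (0 h) or exposed to 3 µM CHIR99021, a small molecule that inhibits the kinase GSK-3, for 3 h or 6 h, and total RNA was sequenced from 3 biological replicates at each time. The 9 libraries all came from this 1 cell line, with no other agent in the labels. Untreated cells were sampled at 0 h alone, so exposure to CHIR99021 and time in culture cannot be told apart.

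The members differ in function. AOX1 encodes aldehyde oxidase, a cytosolic enzyme carrying a molybdenum cofactor that oxidises aldehydes and nitrogen-containing rings, including many drugs, and is best known from the liver. LRRK2 encodes a large protein with a kinase and a GTPase domain that phosphorylates Rab GTPases, the switches of vesicle traffic, and its mutations cause familial Parkinson disease. In blood it is known from B cells and myeloid cells. SCML4 encodes a protein of the Scm family, relatives of a fly Polycomb group protein that takes part in gene silencing. RNF11 encodes a RING finger ubiquitin ligase that binds NEDD4-family ligases and works with the ubiquitin-editing enzyme A20 (TNFAIP3) in restraining NF-kappaB signalling. CD28 encodes the costimulatory receptor of T cells, which binds CD80 and CD86 on antigen-presenting cells, and it is also made by plasma cells. GSK-3 phosphorylates many proteins, among them beta-catenin and MYC, for which the phosphate is a mark for degradation.

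Each library had 46359911 to 52880876 reads assigned to genes. Levels are given as CPM, the reads of a gene over the normalised size of its library, and a count of 0, which allows up to 3 reads, corresponds to an upper limit of 0.0516 to 0.0692 CPM among the libraries. The 8 B cell markers (such as MS4A1, CD79A and PAX5) were all present, with a summed level of 2690 to 2730 CPM at 0 h, 2620 to 2720 CPM at 3 h and 2710 to 2870 CPM at 6 h. Single B cell markers moved within that sum: at 6 h over 0 h MS4A1 (log2 fold change 0.95) and CD79A (0.56) rose while PAX5 (-0.68), CD22 (-0.68) and EBF1 (-0.65) fell, each past the edgeR threshold described with the gene lists. Of 16 T and NK cell markers, 7 (CD3D, CD2, CD7, CD8A, CD8B, THEMIS and GZMB) had 0 reads in every library, and the summed level of the list was 4.06 to 4.31, 3.68 to 4.04 and 4.59 to 4.84 CPM at 0 h, 3 h and 6 h. Most of that sum was IL7R and CD247. TRDC, a T cell receptor gene that is not on the list, had 1.07, 5.40 and 17.5 CPM at 0 h, 3 h and 6 h. The 9 myeloid markers summed to at most 0.323 CPM and the 8 epithelial, fibroblast and hepatocyte markers to at most 0.0537 CPM in any library.

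The sequences around the starts of the 5 genes are shown because the members share a direction of change, and they let the promoters be compared base by base. Each window runs from 250 bases before to 50 bases after the annotated start, read 5′ to 3′ along the gene's strand, from the RefSeq promoter table for build GRCh38.p14, in which all 5 symbols had an entry. They lie at chr2:200585764-200586063 on the plus strand for AOX1, chr12:40224747-40225046 on the plus strand for LRRK2, chr6:107732101-107732400 on the minus strand for SCML4, chr1:51236023-51236322 on the plus strand for RNF11 and chr2:203706389-203706688 on the plus strand for CD28. Capitals mark matches, on either strand, to any of 5 short motifs: the E-box CACGTG that MYC and related factors recognise, the TCF/LEF core CTTTGA, the cyclic AMP response element half-site TGACG (read as CGTCA on the other strand), the heat shock element GAANNTTC and the CCAAT box (read as ATTGG on the other strand).
AOX1: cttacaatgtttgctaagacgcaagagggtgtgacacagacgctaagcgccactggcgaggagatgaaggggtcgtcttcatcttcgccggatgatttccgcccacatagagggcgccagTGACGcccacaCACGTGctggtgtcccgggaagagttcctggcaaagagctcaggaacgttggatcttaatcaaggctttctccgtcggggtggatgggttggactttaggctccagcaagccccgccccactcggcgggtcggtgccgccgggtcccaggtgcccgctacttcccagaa
LRRK2: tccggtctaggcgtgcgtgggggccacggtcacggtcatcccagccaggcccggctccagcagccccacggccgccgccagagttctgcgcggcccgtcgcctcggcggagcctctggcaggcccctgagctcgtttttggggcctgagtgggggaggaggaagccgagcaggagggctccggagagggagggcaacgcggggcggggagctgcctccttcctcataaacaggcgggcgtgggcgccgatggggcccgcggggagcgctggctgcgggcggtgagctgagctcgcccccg
SCML4: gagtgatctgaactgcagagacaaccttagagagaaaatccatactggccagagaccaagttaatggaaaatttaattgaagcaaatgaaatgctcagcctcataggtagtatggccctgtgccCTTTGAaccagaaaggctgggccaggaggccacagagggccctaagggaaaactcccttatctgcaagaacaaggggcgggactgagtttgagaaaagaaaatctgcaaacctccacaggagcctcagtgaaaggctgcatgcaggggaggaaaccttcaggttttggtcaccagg
RNF11: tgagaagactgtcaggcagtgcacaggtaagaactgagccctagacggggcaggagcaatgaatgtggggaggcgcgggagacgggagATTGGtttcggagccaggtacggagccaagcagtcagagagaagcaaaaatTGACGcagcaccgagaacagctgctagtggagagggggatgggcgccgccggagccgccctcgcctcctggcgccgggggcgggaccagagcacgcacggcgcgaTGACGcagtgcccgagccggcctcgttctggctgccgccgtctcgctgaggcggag
CD28: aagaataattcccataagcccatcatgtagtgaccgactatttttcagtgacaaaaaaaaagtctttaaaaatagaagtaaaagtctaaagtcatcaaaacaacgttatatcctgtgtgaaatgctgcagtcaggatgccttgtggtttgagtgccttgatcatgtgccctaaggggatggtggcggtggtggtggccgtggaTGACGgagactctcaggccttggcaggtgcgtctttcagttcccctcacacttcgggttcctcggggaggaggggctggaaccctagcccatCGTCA

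The 5 windows differed widely in composition. LRRK2 had the most GC-rich window at 74.7%, with 32 CpG dinucleotides, and 89.7% of the 35116 human promoter windows of the same length were less GC-rich. RNF11 followed with 66.0% GC and 28 CpGs, and AOX1 with 60.0% and 22 CpGs. SCML4 with 49.0% GC and 1 CpG, and CD28 with 48.3% and 9 CpGs, lay in the lower part of the distribution, above 28.7% and 27.3% of windows. The E-box occurred in the AOX1 window, 119 bases before the start, and in 7.26% of all windows. The TCF/LEF core occurred in the SCML4 window, 126 bases before the start, and in 12.9% of all windows. The half-site TGACG occurred in the windows of AOX1, RNF11 and CD28, with matches at 2 positions each in RNF11 and CD28, against 24.6% of all windows. The CCAAT box occurred in RNF11 (34.6% of all windows) and the heat shock element in no member (6.77% of all windows). No motif was shared by all members, and none of the 5 motifs matched in LRRK2. No motif overlapped another in these windows. A match is a stretch of letters, and no binding was measured here.

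**Figure D1:**
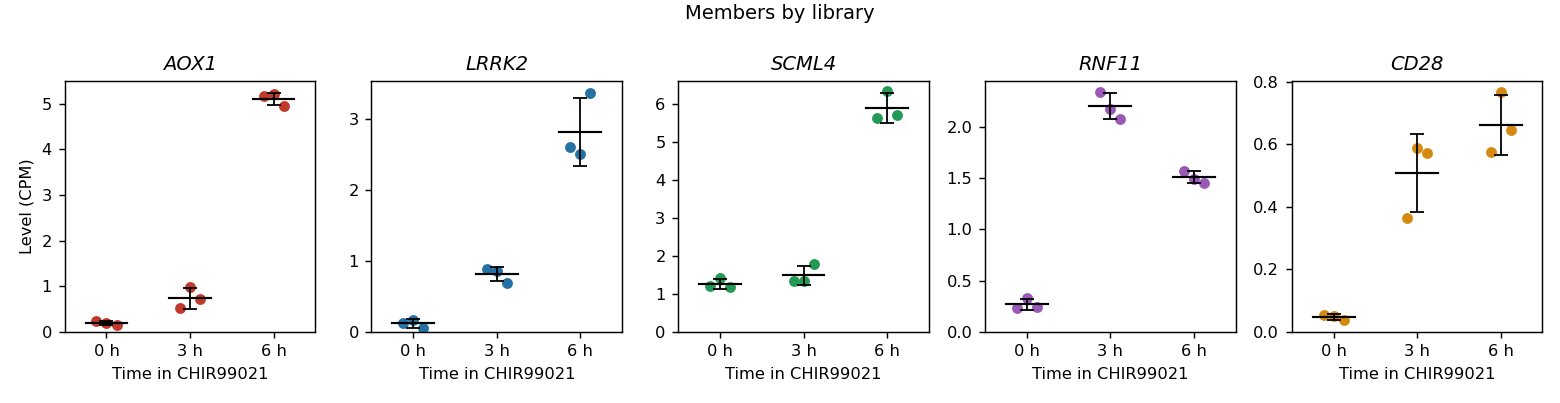
Level of each member (CPM, linear axes starting at 0, a scale of its own per gene) against time in CHIR99021. Coloured points are the 9 libraries, and black lines and bars are the mean ± SD of the 3 libraries at a time. AOX1, LRRK2 and SCML4 are highest at 6 h, RNF11 at 3 h, and the 3 h and 6 h points of CD28 overlap.

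The members followed 4 different time courses, which the plot of levels by library shows. AOX1 and LRRK2 were higher at 3 h and higher again at 6 h. SCML4 differed little at 3 h and was high at 6 h. RNF11 was highest at 3 h and lower, though still far above 0 h, at 6 h. CD28 was high at 3 h and, with overlapping libraries, slightly higher on average at 6 h. Expressed as the share of the 6 h difference in CPM that was already present at 3 h, the values were 4.9% for SCML4, 11.1% for AOX1, 25.7% for LRRK2, 74.9% for CD28 and 156.0% for RNF11.

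AOX1 (ENSG00000138356, chromosome 2) had 13, 11 and 8 reads at 0 h, 24, 50 and 35 reads at 3 h and 243, 238 and 215 reads at 6 h. These are levels of 0.233, 0.189 and 0.148 CPM at 0 h, 0.515, 0.979 and 0.715 CPM at 3 h and 5.17, 5.21 and 4.96 CPM at 6 h. The 3 times did not overlap, the 3 h libraries were the most scattered, and most of the increase fell after 3 h. The means were 0.19 ± 0.0421, 0.736 ± 0.233 and 5.11 ± 0.134 CPM (SD, n = 3 each). The log2 fold change was 1.95 (SE 0.28) for 3 h over 0 h, 4.73 (SE 0.20) for 6 h over 0 h and 2.78 (SE 0.16) for 6 h over 3 h. The ratio of summed reads, scaled for depth, was 26.9 for 6 h over 0 h, with a 95% counting interval of 18.8 to 39.6. Counting intervals here cover counting error only, not the spread between cultures. Each SE is the size of the log2 fold change divided by the square root of the fit's F statistic. At low counts such an SE can fall below counting error. Ranked by fold change among the 15847 tested genes, AOX1 was number 2 from the top at 6 h over 0 h, number 5 at 6 h over 3 h and number 69 at 3 h over 0 h.

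LRRK2 (ENSG00000188906, chromosome 12) had 7, 10 and 3 reads at 0 h, 41, 44 and 34 reads at 3 h and 122, 114 and 146 reads at 6 h. These correspond to 0.125, 0.172 and 0.0556 CPM at 0 h, 0.879, 0.861 and 0.694 CPM at 3 h and 2.6, 2.5 and 3.37 CPM at 6 h. Its 3 times were also fully separated, and the third library at 0 h stood at the limit that a count of 0 allows. Means were 0.118 ± 0.0585, 0.812 ± 0.102 and 2.82 ± 0.478 CPM (SD, n = 3 each). LRRK2 had a log2 fold change of 2.74 (SE 0.32) for 3 h over 0 h, 4.54 (SE 0.26) for 6 h over 0 h and 1.79 (SE 0.19) for 6 h over 3 h. From summed reads the 6 h level was 23.6 times that at 0 h (95% counting interval 15.1 to 39.1). It was number 3 from the top at 6 h over 0 h, directly below AOX1, and number 18 at 3 h over 0 h. The 2 genes thus reached similar multiples of their 0 h levels at 6 h, while at 3 h the multiple of LRRK2, 6.81 (4.22 to 11.6), lay above that of AOX1, 3.90 (2.61 to 5.98), with overlapping counting intervals.

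SCML4 (ENSG00000146285, chromosome 6) was the member with the most reads at 0 h. Its reads numbered 67, 82 and 63 at 0 h, 63, 68 and 87 at 3 h and 265, 290 and 248 at 6 h. In CPM these were 1.2, 1.41 and 1.17 at 0 h, 1.35, 1.33 and 1.78 at 3 h and 5.64, 6.35 and 5.72 at 6 h. The 3 h libraries overlapped those at 0 h, and every 6 h library was above all others. SCML4 averaged 1.26 ± 0.132, 1.49 ± 0.251 and 5.90 ± 0.388 CPM (SD, n = 3 each). Its log2 fold change was 0.24 (SE 0.15) for 3 h over 0 h, 2.22 (SE 0.13) for 6 h over 0 h and 1.99 (SE 0.13) for 6 h over 3 h. The ratio of summed reads was 1.18 (95% counting interval 0.970 to 1.43) for 3 h over 0 h and 3.97 (3.42 to 4.63) for 6 h over 3 h. It was number 19 from the top for 6 h over 3 h and number 5222 for 3 h over 0 h.

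RNF11 (ENSG00000123091, chromosome 1) was the only member with a lower level at 6 h than at 3 h. It had 13, 19 and 13 reads at 0 h, 109, 111 and 102 reads at 3 h and 74, 68 and 63 reads at 6 h. The levels were 0.233, 0.327 and 0.241 CPM at 0 h, 2.34, 2.17 and 2.08 CPM at 3 h and 1.57, 1.49 and 1.45 CPM at 6 h. Every 6 h library lay below every 3 h library and above every 0 h library. Relative to the mean, replicates were closer at 3 h and 6 h than at 0 h, where the level of the second library was the highest. The SD was 19.5%, 5.88% and 4.13% of the mean at 0 h, 3 h and 6 h. With fewer reads at 0 h, counting error is a larger share of the mean there, and its part in these values was not tested. Mean levels were 0.267 ± 0.0521, 2.20 ± 0.129 and 1.51 ± 0.0621 CPM (SD, n = 3 each). The log2 fold change was 3.02 (SE 0.17) for 3 h over 0 h, 2.48 (SE 0.18) for 6 h over 0 h and -0.54 (SE 0.13) for 6 h over 3 h. From summed reads the ratio was 5.63 (95% counting interval 4.06 to 7.95) for 6 h over 0 h and 0.686 (0.573 to 0.820) for 6 h over 3 h. RNF11 was number 13 from the top at 3 h over 0 h, number 53 at 6 h over 0 h and number 14424 at 6 h over 3 h. The pseudogenes RNF11P1 and RNF11P2 had 0 reads in every library.

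CD28 (ENSG00000178562, chromosome 2) was close to undetected at 0 h, with 3, 3 and 2 reads. It had 17, 30 and 28 reads at 3 h and 27, 35 and 28 reads at 6 h. This gave 0.0537, 0.0516 and 0.0371 CPM at 0 h, 0.365, 0.587 and 0.572 CPM at 3 h and 0.574, 0.766 and 0.646 CPM at 6 h. All 0 h libraries were at or under the level that a count of 0 allows in them, and all treated libraries were above it. The highest 3 h library was above the lowest 6 h library, and the other two 6 h libraries were above all at 3 h. The CD28 means were 0.0474 ± 0.00904, 0.508 ± 0.124 and 0.662 ± 0.0969 CPM (SD, n = 3 each). With so few reads at 0 h the size of the change is loosely bounded: the ratio of summed reads was 10.7 (95% counting interval 5.18 to 25.8) for 3 h over 0 h and 13.9 (6.76 to 33.2) for 6 h over 0 h. The log2 fold changes of the fit were 3.36 (SE 0.38) for 3 h over 0 h, 3.73 (SE 0.36) for 6 h over 0 h and 0.37 (SE 0.24) for 6 h over 3 h. For 3 h and 6 h over 0 h the counting intervals are wider than these SEs alone would give. The T cell markers CD3E and CD3G had at most 1 read in any library and CD3D had 0, and among the 16 T and NK cell markers 4 at 0 h, 3 at 3 h and 3 at 6 h had more than 3 reads in every library. Of the listed markers IL7R had 2.84, 3.24 and 3.77 CPM and CD247 0.887, 0.403 and 0.727 CPM at 0 h, 3 h and 6 h. TRDC, which is outside the list, had 1.07, 5.40 and 17.5 CPM at these times. The part of these genes in the CD28 values was not tested. A change in the share of cells that express a gene and a change in RNA per cell cannot be told apart in these bulk libraries.

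**Figure D2:**
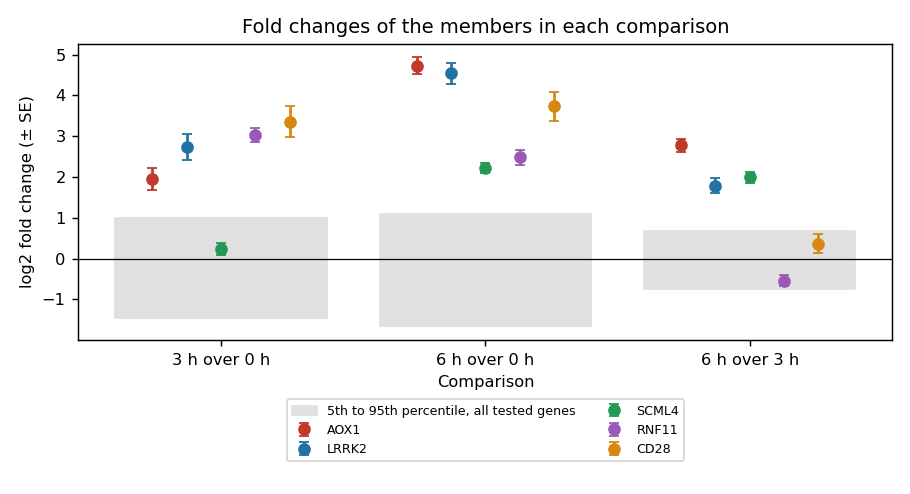
Log2 fold change (± SE, 3 libraries a time) of each member for 3 h over 0 h, 6 h over 0 h and 6 h over 3 h. The SE comes from the F statistic of the fit and can fall below counting error at low counts. The grey boxes span the 5th to 95th percentile of all 15847 tested genes. At 6 h over 0 h all 5 members lie above the box, and at 6 h over 3 h RNF11 lies within it below 0.

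Set against the whole transcriptome, the members stood at the edge of a broad response, as their choice required. For 3 h over 0 h, 4 of the 5 had every treated library above every untreated one, which held for 34.8% of tested genes. Of the members, 4 exceeded a 2-fold increase (5.02% of tested genes) and 3 a 4-fold increase (0.379%). For 6 h over 0 h all 5 were separated (36.2% of tested genes), exceeded 2-fold (6.56%) and exceeded 4-fold (0.694%). For 6 h over 3 h, 3 members were separated upward (27.2% of tested genes) and exceeded 2-fold (2.01%), and 1, AOX1, exceeded 4-fold (0.114%). The members' median log2 fold change was 2.74, 3.73 and 1.79 in these comparisons, against -0.01, 0.02 and 0.01 over all tested genes. The 5th and 95th percentiles of all tested genes were -1.44 and 1.00 for 3 h over 0 h, -1.66 and 1.09 for 6 h over 0 h, and -0.74 and 0.68 for 6 h over 3 h. Nothing is read from these counts, since the same contrasts chose the members, and the comparisons with 0 h share their 0 h libraries.

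**Figure D3:**
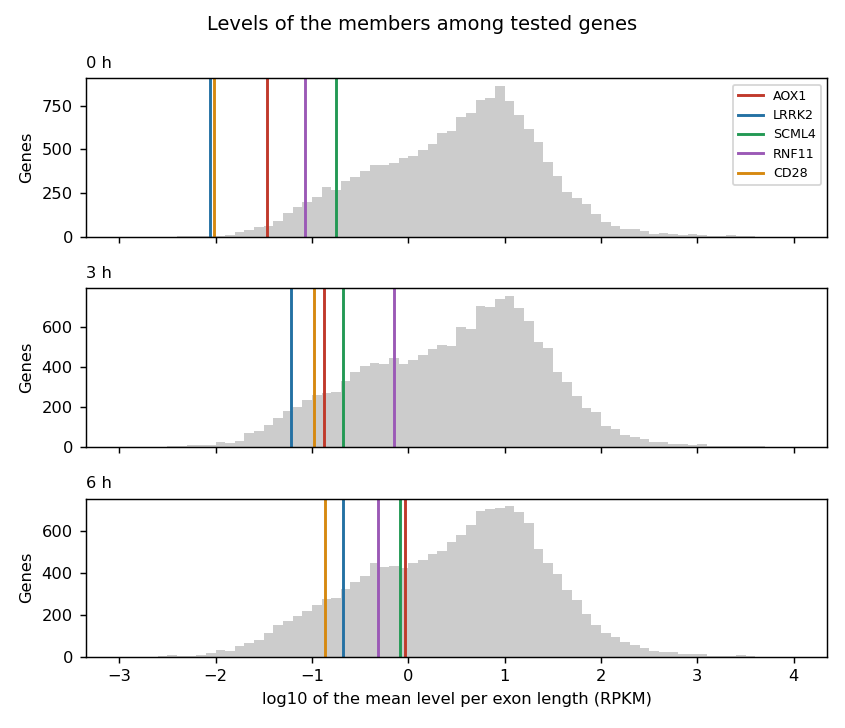
Mean level per exon length (log10 of RPKM) of the members, as coloured lines, over the histogram of tested genes with a known exon length, at 0 h, 3 h and 6 h. The lines sit in the lower tail at 0 h, and the highest of them at 6 h, AOX1 and SCML4, have 29.9% and 28.6% of genes below them.

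Levels of different genes were compared per kilobase of exon (RPKM), for which 15397 of the 15847 tested genes had an annotated exon length. At 0 h the order was SCML4 (0.177 RPKM), RNF11 (0.0854), AOX1 (0.0342), CD28 (0.00971) and LRRK2 (0.00872), and the ranges of CD28 and LRRK2 overlapped. At 3 h it was RNF11 (0.704 RPKM), SCML4 (0.209), AOX1 (0.132), CD28 (0.104) and LRRK2 (0.0602), with AOX1 and CD28 overlapping. At 6 h AOX1 (0.920 RPKM) and SCML4 (0.829) led, followed by RNF11 (0.482), LRRK2 (0.209) and CD28 (0.136). Neighbours in the 6 h order did not overlap, though the lowest AOX1 library (0.893) and the highest SCML4 library (0.892) nearly met. Per kilobase of exon, AOX1 thus went past SCML4 and RNF11 between 3 h and 6 h. In CPM, AOX1 also went past RNF11 but stayed below SCML4. At 6 h its libraries had 4.96 to 5.21 CPM, against 5.64 to 6.35 CPM for SCML4. The 6 h order of AOX1 and SCML4 therefore rests on the exon lengths used, 5556 and 7116 bases. The annotation release behind the counts is not given. Even at their highest the members remained modestly expressed: AOX1 had 1.08%, 9.42% and 29.9% of tested genes below it at 0 h, 3 h and 6 h, SCML4 9.41%, 13% and 28.6%, and RNF11 4.35%, 26.6% and 22.0%. LRRK2 had 0.0779%, 4.17% and 13.1% of tested genes below it, and CD28 0.0909%, 7.58% and 9.61%.

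Genes related to each member by function were then examined in the same fit of all genes. Here a gene is said to have risen or fallen where its adjusted p in edgeR's quasi-likelihood test was under 0.05. By that measure 32.8% of all tested genes rose and 33.5% fell at 3 h over 0 h (66.3% in either direction), 35.7% rose and 35.0% fell at 6 h over 0 h (70.8%), and 21.5% rose and 21.9% fell at 6 h over 3 h (43.4%). Of the genes that passed, 49.5% rose at 3 h and 50.5% at 6 h over 0 h. With upper-quartile factors in place of TMM those shares were 36.0% and 39.2%, and with library size alone 31.8% and 32.8%. The median log2 fold change of all genes over 0 h was -0.22 at both times with library size alone, and -0.17 at 3 h and -0.13 at 6 h with upper-quartile factors. Calls of a rise among small changes over 0 h therefore depend on the scaling.

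**Figure D4:**
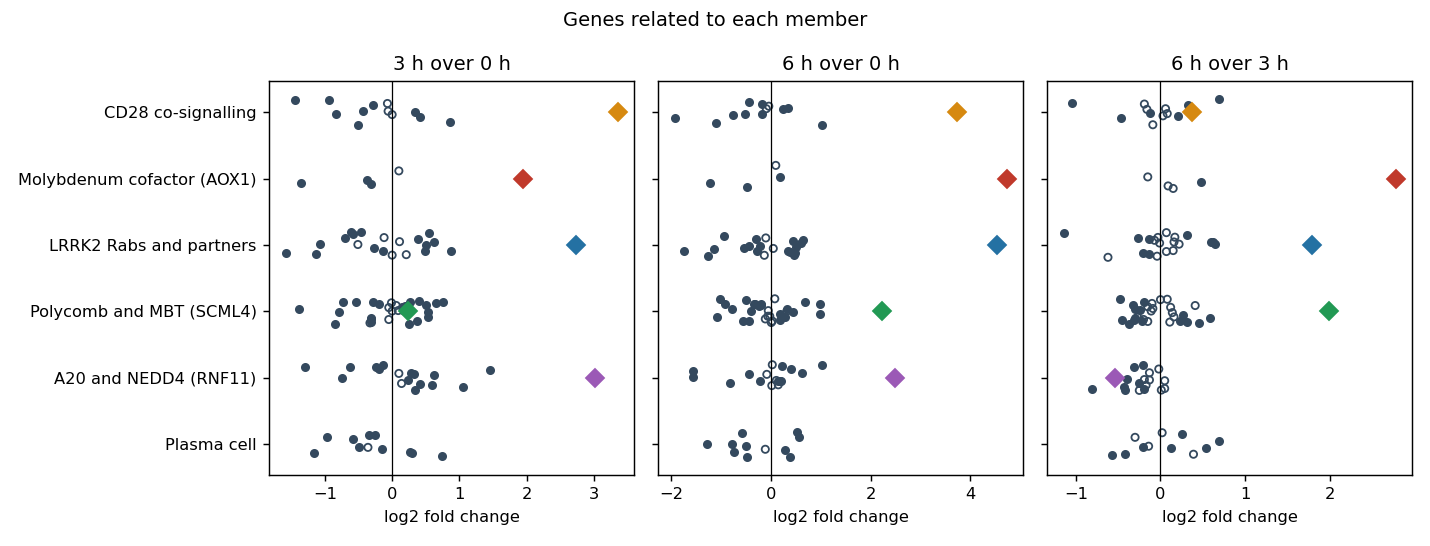
Log2 fold change of the tested genes of each related list for 3 h over 0 h, 6 h over 0 h and 6 h over 3 h. Filled circles passed an adjusted p of 0.05, open circles did not, and the coloured diamond is the member to which the list relates. At 6 h over 0 h the listed genes lie on both sides of 0. The 5 members, which were chosen for their increases, lie between 2.22 and 4.73.

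Around CD28, 12 of 23 genes of its receptor family, ligands and signalling partners were expressed enough to be tested. The neighbouring family genes CTLA4, an inhibitory receptor for the same ligands, and ICOS, another costimulatory receptor, had 0 reads in every library. Over 0 h, 3 genes rose and 6 fell at 3 h (median log2 fold change -0.18, against -0.01 for all genes), and 3 rose and 7 fell at 6 h (median -0.18, against 0.02). CD86, a ligand of CD28 on B cells, fell to 2.61 CPM at 3 h and 1.88 CPM at 6 h, against 7.15 CPM at 0 h (log2 fold change -1.92 at 6 h, SE 0.099, edgeR adjusted p = 7.42e-10). CD80, the other ligand, averaged 0.129, 0.0472 and 0.0225 CPM and was too low to test. ICOSLG, the ligand of ICOS, rose at 3 h (55.4, 101 and 48.9 CPM at 0 h, 3 h and 6 h) and was slightly below its 0 h level at 6 h. BTLA, an inhibitory receptor of lymphocytes, rose to 9.12 CPM at 3 h and 14.7 CPM at 6 h, against 7.20 CPM at 0 h (log2 fold change 1.03 at 6 h, SE 0.07, edgeR adjusted p = 1.11e-08). Its ligand TNFRSF14 fell to 10.8 CPM at 3 h and 9.71 CPM at 6 h, against 20.7 CPM at 0 h.

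Downstream of CD28, the kinases LCK and FYN fell at both times, with log2 fold changes of -0.43 and -0.51 at 3 h and -0.52 and -0.43 at 6 h. PIK3R2, a regulatory subunit of PI 3-kinase, fell (log2 fold change -0.83 at 3 h and -0.76 at 6 h), and its relative PIK3R1 rose (0.42 at 3 h, 0.24 at 6 h). VAV1, a signalling protein of lymphocytes, rose at 6 h (0.34). For 6 h over 3 h, 3 rose (BTLA 0.69, VAV1 0.33 and PRKCQ 0.21), 3 fell (ICOSLG -1.05, CD86 -0.47 and AKT1 -0.12) and 6 did not pass, with a median of -0.03. With library size alone 1 gene of this list rose at 3 h over 0 h in place of 3, the calls of PIK3R1 and BTLA being lost. The rise of PIK3R1 at 6 h over 0 h (edgeR adjusted p = 0.0466) was lost in 12 of 17 alternatives, among them upper-quartile factors, DESeq2 size factors and leaving out any 1 library at 3 h or 6 h or replicate 3 at 0 h. The 6 h over 3 h calls of PRKCQ and AKT1 were each lost in 9 of 17. PDCD1, an inhibitory receptor of the CD28 family that was singled out after its values were seen, had 0, 0 and 0 reads at 0 h, 1, 6 and 1 reads at 3 h and 12, 14 and 9 reads at 6 h. That is 0.0531 ± 0.0557 CPM at 3 h and 0.256 ± 0.0494 CPM at 6 h (SD, n = 3 each), too low for the test. All 6 h libraries of PDCD1 had more reads than any earlier one.

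CD28 is also a gene of plasma cells, the antibody-secreting end of the B cell lineage, and 11 of 12 plasma cell genes were tested. Over 0 h, 3 rose and 7 fell at 3 h (median -0.35), and 4 rose and 6 fell at 6 h (median -0.48). Those that rose included TNFRSF17, a receptor for plasma cell survival factors (log2 fold change 0.74 at 3 h and 0.52 at 6 h), JCHAIN, the joining chain of secreted antibodies (0.30 and 0.56), and XBP1, a transcription factor of the secretory pathway (0.26 and 0.39). Among those that fell were TNFRSF13B (-1.17 at 3 h), CD27 (-0.59 at 3 h, -0.57 at 6 h), CD38 (-0.73 at 6 h) and IRF4, a transcription factor needed for plasma cells (-0.78 at 6 h, SE 0.06, edgeR adjusted p = 4.56e-08). PRDM1, at low levels of 0.535, 0.271 and 0.219 CPM at 0 h, 3 h and 6 h, fell too (-0.97 at 3 h, -1.27 at 6 h). SDC1, the gene of the list that was not tested, had at most 1 read in any library. At 6 h over 3 h, 4 rose, MZB1 with a log2 fold change of 0.54 among them. In that comparison 3 fell, CD38 with -0.57 among them, and the median was 0.02. With library size alone 1 of these genes rose at 3 h over 0 h, the calls of XBP1 and JCHAIN at that time being lost.

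AOX1 belongs to a small set of enzymes that need the molybdenum cofactor, and of 10 genes for these enzymes and for making the cofactor 4 were tested. XDH, the nearest relative of AOX1, had 0 reads in every library, as did the molybdenum enzymes MTARC1 and MTARC2 and the first enzyme of cofactor synthesis, MOCS1. GPHN and MOCOS, which insert or sulfurate the molybdenum, had at most 1 read in any library. SUOX, sulfite oxidase, fell to 1.95 CPM at 3 h and 2.16 CPM at 6 h, against 4.99 CPM at 0 h (log2 fold change -1.21 at 6 h, SE 0.097, edgeR adjusted p = 7e-08). MOCS3 fell at both times (-0.32 and -0.47), and NFS1, a cysteine desulfurase, fell at 3 h (-0.38) and rose at 6 h over 3 h (0.48). MOCS2, a subunit gene of molybdopterin synthase, rose slightly at 6 h over 0 h (0.19), a call lost without any 1 of replicate 1 at 0 h and replicates 9 and 11 at 6 h, and with upper-quartile factors, library size alone, a stricter expression filter or the compared groups alone. In all, edgeR called 0 higher and 3 lower at 3 h over 0 h (median -0.35), 1 higher and 2 lower at 6 h over 0 h (median -0.19) and 1 higher and 0 lower at 6 h over 3 h (median 0.12). For the 3 h count of 0 higher, an unadjusted p under 0.05, DESeq2 and limma-voom each also gave 0. For the 6 h over 3 h count of 0 lower, an unadjusted p under 0.05 gave 1, and DESeq2 and limma-voom gave 0.

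For LRRK2, 20 of 26 genes were tested, comprising its Rab substrates, the retromer and other partners. LRRK1, the closest relative of LRRK2, averaged 340 ± 38.1 CPM at 6 h and 261 ± 36.4 CPM at 0 h (SD, n = 3 each), with a log2 fold change of 0.38 at 6 h over 0 h (SE 0.1, edgeR adjusted p = 0.00561). Over 0 h, 6 of the genes rose and 9 fell at 3 h (median -0.13), and 8 rose and 9 fell at 6 h (median -0.11). The Rab genes of the list moved in both directions. RAB35 (0.87 at 3 h, 0.61 at 6 h), RAB10 (0.55, 0.51) and RAB8A rose. So did GAK, a kinase of clathrin uncoating encoded at a Parkinson disease locus (0.62 at 3 h, 0.48 at 6 h), and RAB5C (0.64 at 6 h). RAB3D fell to 8.40 CPM at 3 h and 10.4 CPM at 6 h, against 25 CPM at 0 h, with a log2 fold change of -1.58 at 3 h (SE 0.066, edgeR adjusted p = 1.77e-10). RAB43 (-1.14), RAB5B (-0.70) and RAB8B (-0.61) fell at 3 h, and RAB8B was also lower at 6 h over 0 h (-0.54). RAB29, which recruits LRRK2 to membranes, fell at 3 h (-1.08) and rose at 6 h over 3 h (0.64), so that it was at 33.8, 16 and 24.9 CPM at 0 h, 3 h and 6 h. PINK1, a mitochondrial kinase also mutated in familial Parkinson disease, fell to 1.49 CPM at 6 h, against 4.97 CPM at 0 h (log2 fold change -1.73, SE 0.14, edgeR adjusted p = 5.21e-08). PPM1H, the phosphatase that reverses Rab phosphorylation by LRRK2, fell at 6 h over 0 h (-1.13). For 6 h over 3 h, 4 rose (RAB29 0.64, RAB3A 0.62, RAB5B 0.60 and RAB3D 0.31), 5 fell (PINK1 -1.14, RAB35 -0.27, VPS35 -0.21, GAK -0.14 and RAB5A -0.13) and 11 did not pass, with a median of 0.03. The count of 5 that fell was 3 with no filter on low counts, and also 3 without any 1 of replicates 1 and 2 at 0 h, 6 and 7 at 3 h and 9 at 6 h. The calls of GAK and RAB5A in that comparison were each lost in 10 of 17 alternatives. The 6 h rise of LRRK1 over 0 h was not called with upper-quartile factors or library size alone.

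SCML4 was set beside 29 tested genes, of 31 matched, for Polycomb proteins and proteins with the MBT domain. Of the other Scm family genes, SCML1 had 0 reads, SCMH1 was at 47.0, 50.1 and 46.4 CPM and did not pass in any comparison, and SCML2 rose slightly at 3 h over 0 h (by 0.25 on the log2 scale, SE 0.058, edgeR adjusted p = 0.00148) and fell at 6 h over 3 h (-0.31). Over 0 h, 11 of the 29 rose and 10 fell at 3 h (median 0.00), and 8 rose and 13 fell at 6 h (median -0.06). L3MBTL2, an MBT-domain protein of a variant Polycomb complex, rose to 86.2 CPM at 6 h, against 43.5 CPM at 0 h (log2 fold change 0.99, SE 0.046, edgeR adjusted p = 2.70e-10). CBX6 (0.98) and CBX8 (0.69) rose at 6 h, while CBX7 (-1.08), a chromodomain subunit of the same kind of complex, fell. The ubiquitin ligase subunit RNF2 (0.65) and SFMBT1 (0.54) rose at 3 h. L3MBTL3 (-1.38) and the methyltransferase EZH1 (-0.85) fell at 3 h. For 6 h over 3 h, 5 rose (CBX6 0.58, L3MBTL3 0.46, EZH1 0.31, YAF2 0.27 and L3MBTL2 0.23) and 10 fell (BMI1 -0.48, MBTD1 -0.46, RNF2 -0.37 and others), with a median of -0.11. The numbers that rose over 0 h were 7 at 3 h and 5 at 6 h with upper-quartile factors, and 6 and 4 with library size alone. The 3 h rise of SCML2 was not called under either scaling. Leaving out 1 library at a time, 8 to 15 genes of the list fell at 6 h over 3 h. The calls of PCGF6 and SFMBT1 in that comparison were lost in 5 and 4 of 17 alternatives.

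RNF11 was set beside 17 tested genes, of 18, for the A20 complex and the NEDD4 family. TNFAIP3, which encodes A20 itself, was at 17.1, 18.8 and 18.9 CPM and did not pass in any comparison (log2 fold change 0.14, SE 0.073, at 3 h over 0 h). The other subunits of the A20 complex, ITCH and TAX1BP1, rose at 3 h over 0 h with log2 fold changes of 0.59 (SE 0.077, edgeR adjusted p = 1.14e-05) and 0.32 (SE 0.059, edgeR adjusted p = 0.000306). RIPK1, a signalling kinase that A20 modifies, rose to 33.4 CPM at 3 h and 24.8 CPM at 6 h, against 12.2 CPM at 0 h (log2 fold change 1.45 at 3 h, SE 0.06, edgeR adjusted p = 1.62e-10). TNIP2, an A20-binding inhibitor of NF-kappaB, rose to 52.9 CPM at 3 h and 39.6 CPM at 6 h, against 25.5 CPM at 0 h. The NEDD4-family ligases WWP2 (0.63), SMURF1 (0.34), SMURF2 (0.28) and WWP1 (0.24) rose at 3 h. In contrast NEDD4 (-0.74 at 3 h, -1.56 at 6 h), NEDD4L (-0.63, -0.81) and HECW2 (-1.30, -1.56) fell. In all, 9 rose and 6 fell at 3 h over 0 h (median 0.24), and 7 rose and 5 fell at 6 h over 0 h (median 0.11). With library size alone 2 rose and 8 fell at 6 h over 0 h, and with upper-quartile factors 3 rose. Library size alone also ended the calls of TAX1BP1 at 3 h and of ITCH at 6 h. The 3 h calls of SMURF2 and WWP1 were lost under either scaling.

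Between 3 h and 6 h, the interval in which RNF11 itself was lower at the later time, 8 of these 17 genes fell, 9 did not pass and 0 rose (median -0.19, against 0.01 for all genes). The count of 0 was the same at an unadjusted p under 0.05 in edgeR and with DESeq2 and limma-voom. NEDD4 (-0.81), RIPK1 (-0.43), TNIP2 (-0.42) and WWP2 (-0.40) were among those that fell. RIPK1, TNIP2 and WWP2 had, like RNF11, a higher mean at 3 h than at either other time. NEDD4 (9.43, 5.63 and 3.20 CPM at 0 h, 3 h and 6 h) and EPS15 (143, 121 and 106 CPM) were instead highest at 0 h. The background for a fall was 21.9% of tested genes. Leaving out 1 library at a time, 6 to 11 genes of the list fell.

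The position of the members in the genome was not used to choose them, so the 5 nearest protein-coding genes on each side were examined too. Of 50 such genes 33 were tested. Over 0 h, 12 rose and 12 fell at 3 h (median 0.02), and 13 rose and 6 fell at 6 h (median 0.07). Between 3 h and 6 h, 12 rose and 11 fell (median 0.04). At least 2-fold increases numbered 1, 2 and 0 in these comparisons. The largest were in BEND3, 1.67 at 3 h and 1.21 at 6 h over 0 h, in the neighbourhood of SCML4. With library size alone 8 rose and 15 fell at 6 h over 0 h, with upper-quartile factors 14 fell, and the 11 that fell at 6 h over 3 h became 6 without replicate 7 at 3 h and 7 without replicate 5 at 3 h or replicate 9 at 6 h.

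Directly beside AOX1, SGO2 (log2 fold change 0.60 at 3 h, 0.27 at 6 h), BZW1 (0.80, 0.97) and CLK1 (0.67, 0.51) rose over 0 h and KCTD18 fell (-0.79, -0.98). AOX1 itself had 4.73 at 6 h, and nothing is read from that difference, since AOX1 was chosen for its increase. Beside LRRK2, SLC2A13 had 0.02 at 3 h and 0.40 at 6 h, and C12orf40, MUC19 and CNTN1 had at most 1 read in any library. Next to SCML4, SOBP had -0.03 and -0.09, PDSS2 -0.11 and 0.27, SEC63 0.37 and 0.41, and OSTM1 0.31 and 0.55. With library size alone the rises of SGO2, SLC2A13 and PDSS2 at 6 h and of OSTM1 at 3 h over 0 h were not called, and that of SGO2 was also lost with upper-quartile factors. At 6 h over 3 h, 5 of the 8 tested neighbours of SCML4 rose (AFG1L 0.76, PDSS2 0.38, MTRES1 0.26, SNX3 0.25 and OSTM1 0.25). BEND3 fell (-0.46) and 2 did not pass, and 21.5% of all tested genes rose. The call of MTRES1 was lost without replicate 5 at 3 h. In that interval 3 of 10 rose and 6 fell beside AOX1, and 2 of 4 rose and 1 fell beside LRRK2. Beside RNF11 1 of 5 rose and 1 fell, and beside CD28 1 of 6 rose and 2 fell. The log2 fold change in that interval was 1.99 for SCML4 and 2.78 for AOX1. Over 0 h, 0 of the 5 tested neighbours of RNF11 rose at 3 h or 6 h. Beside RNF11, CDKN2C (-0.75, -0.60) and EPS15 (-0.24, -0.43), which is also on the RNF11 list, fell, and C1orf185 and TTC39A were too low to test. CD28 is flanked by RAPH1 and ABI2 on one side, of which ABI2 fell (-0.49, -0.79), and on the other by CTLA4 and ICOS with their 0 reads. No member shares exon bases with another gene in the GENCODE release 29 annotation. LRRK2-DT, which overlaps LRRK2 on the opposite strand, had 0 reads. The pseudogene AL162430.1, which overlaps RNF11 on the opposite strand outside its exons, had 18, 23 and 21 reads at 0 h, 11, 8 and 12 at 3 h and 30, 8 and 7 at 6 h. Its order of times was not that of RNF11, and with the strand setting unknown its part in the RNF11 counts was not tested.

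**Figure D5:**
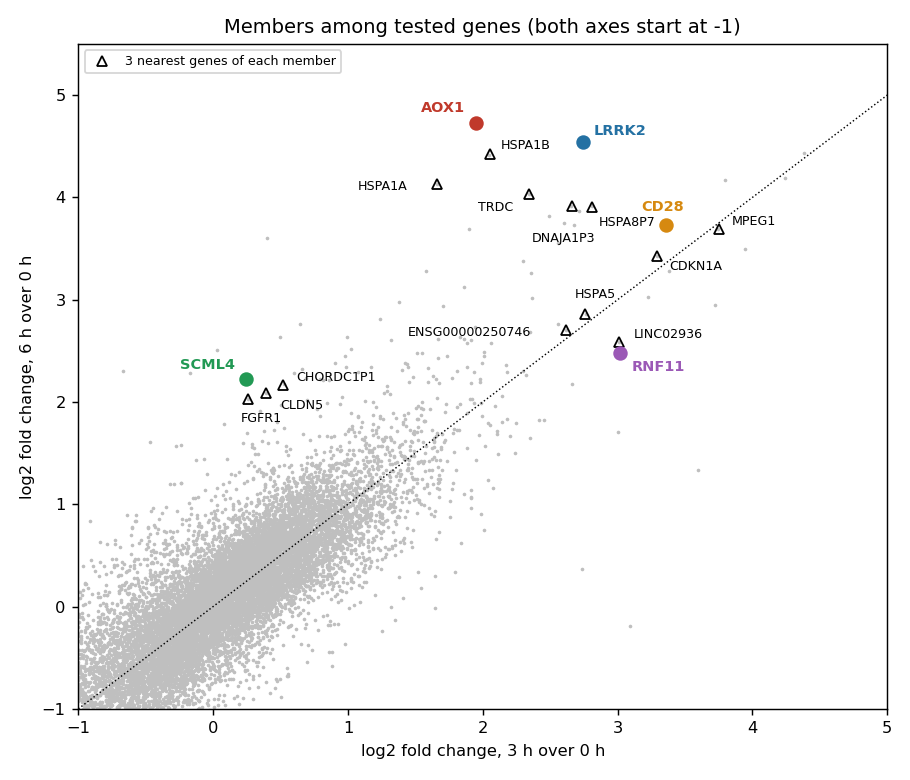
Log2 fold change at 6 h over 0 h against that at 3 h over 0 h for tested genes (grey), the members (coloured circles) and the 3 genes nearest to each member (open triangles). Both axes start at -1 and genes outside the drawn range are not shown. Genes on the dotted line have the same value at both times. AOX1, LRRK2 and SCML4 lie above the line, CD28 near it and RNF11 below it.

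The genes whose pair of log2 fold changes (3 h and 6 h over 0 h) lay nearest to each member were listed by Euclidean distance, a measure that rests on 3 group means and 9 libraries. Nearest to AOX1 were HSPA1B at a distance of 0.33 (7.41, 30.6 and 158 CPM at 0 h, 3 h and 6 h), HSPA1A at 0.67 (0.301, 0.966 and 5.34 CPM), which encode inducible HSP70 chaperones, and TRDC at 0.80 (1.07, 5.40 and 17.5 CPM), the constant region of the T cell receptor delta chain. Nearest to LRRK2 were the HSP70 and HSP40 pseudogenes HSPA8P7 at 0.62 (3.84, 26.9 and 58.0 CPM) and DNAJA1P3 at 0.63 (0.119, 0.764 and 1.83 CPM), and again TRDC at 0.65. Nearest to SCML4 were the receptor gene FGFR1 at 0.19 (0.249, 0.298 and 1.03 CPM), CLDN5, a tight junction gene, at 0.20 (0.079, 0.103 and 0.340 CPM), and CHORDC1P1 at 0.29 (0.740, 1.06 and 3.35 CPM).

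RNF11 lay nearest to LINC02936, a long noncoding RNA, at 0.11 (0.0836, 0.688 and 0.513 CPM), to HSPA5, the chaperone of the endoplasmic reticulum, at 0.46 (325, 2210 and 2350 CPM), and to ENSG00000250746 at 0.46. CD28 lay nearest to CDKN1A, a cell cycle inhibitor, at 0.31 (1.00, 9.80 and 10.8 CPM), to MPEG1, a pore-forming protein of phagocytes with at most 1 read in a 0 h library, at 0.39, and to HSPA8P7 at 0.58. HSPA1A and HSPA1B are near-identical copies, and HSPA8P7, DNAJA1P3 and CHORDC1P1 resemble their parent genes, so their counts are uncertain. The lists depended on the measure: with Pearson's r of log2 CPM over the 9 libraries in place of the distance, 0 of the 3 genes were shared for each of the 5 members.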

How the data were processed

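RNA from untreated and CHIR99021-treated Ramos cells was sequenced in 9 libraries, and the values deposited by the authors are raw counts of reads per Ensembl gene. The submitters' processing notes list the aligner GSNAP, the counter HTSeq 0.6.0, limma 3.30.0 and genome build hg19, and the deposited counts are whole numbers without scaling. Neither the release of the annotation nor strand and counting settings are given in those notes, so overlapping or antisense genes may share reads. The biological replicates are named as such in the series' design text, and nothing says whether they came from separate days.

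The 5 HTSeq summary entries were set aside. Between 67.6% and 70.9% of reads lay in genes, 15.0% to 17.6% in no feature, 2.53% to 2.76% were ambiguous, 9.89% to 11.7% not uniquely aligned, 0.418% to 0.513% of low quality and 0.329% to 0.458% not aligned. The filter of filterByExpr was used with a minimum count of 10 and a minimum total of 15. Counts were scaled by TMM factors and fitted in edgeR 4.0.16 (R 4.3.3) by the robust quasi-likelihood method, with a mean per time over all 9 libraries. Tests were two-sided, with Benjamini-Hochberg adjustment over the 15847 genes tested and a threshold of 0.05. CPM were computed with the TMM factors. Exon lengths came from GENCODE release 29 (GRCh38), matched by gene identifier, and promoter sequences from RefSeq, so no coordinates of the count table were used.

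The members and the 6 gene lists were chosen with earlier results of these data known. Genes were named by rule: the members, their closest family relatives, the 3 genes nearest to each in fold change, the 2 nearest protein-coding neighbours on each side, and up to 3 called genes per list, comparison and direction with the largest change and a mean of at least 0.5 CPM. Not all genes so chosen are reported here, and some named genes, PRDM1 and SDC1 among them, fall outside the rule. The choices varied were the tool (DESeq2 1.42.0 and voom of limma 3.58.1), the scaling (size factors of DESeq2, the upper quartile, or library size alone), the filter (none, or 1 CPM in 3 libraries), the libraries fitted (the compared groups alone, or each library left out), the threshold (0.01) and the measure of likeness (Pearson's r). Plots were made in Python 3.11.15 with matplotlib 3.10.9.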

Additional observations from a re-analysis of the deposited data

How the results depend on the processing

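Of 252 alternative values of the members' log2 fold changes, 248 moved by less than the spread between replicates, and no sign was reversed. The other 4 came from library size alone at 6 h over 0 h: AOX1 4.50, SCML4 1.99, RNF11 2.25 and CD28 3.50, and the members' median became 3.50. CD28 has no value with the filter of 1 CPM in 3 libraries, which it did not pass. Leaving out 1 library at a time, the median of the members ranged from 2.42 to 3.11 for 3 h over 0 h, 3.59 to 3.83 for 6 h over 0 h and 1.65 to 1.87 for 6 h over 3 h. Per member, all alternatives together spanned 4.50 to 4.89 for AOX1, 4.21 to 4.91 for LRRK2, 1.99 to 2.31 for SCML4, 2.25 to 2.65 for RNF11 and 3.50 to 3.83 for CD28 at 6 h over 0 h.

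Of 714 alternative counts of called genes in the lists and among neighbours, 685 stayed within 1.5 times the count reported. With library size alone, 3656 genes were called higher at 6 h over 0 h in place of 5660. The same scaling gave 1 higher in the CD28 list, 6 in the Polycomb list and 1 among plasma cell genes at 3 h over 0 h. At 6 h over 0 h it gave 0 higher in the molybdenum list, 4 in the Polycomb list, 2 higher and 8 lower in the A20 list, and 8 higher and 15 lower among neighbours. Upper-quartile factors gave 7 higher in the Polycomb list at 3 h, and at 6 h over 0 h 0 in the molybdenum list, 5 in the Polycomb list and 3 in the A20 list, with 14 neighbours lower. The molybdenum list also had 0 higher at 6 h over 0 h with 1 CPM in 3 libraries and with the compared groups alone. With no filter, 3 genes of the LRRK2 list were lower at 6 h over 3 h. Leaving out 1 library gave 0 to 2 higher in the molybdenum list at 6 h over 0 h, 3 to 5 lower in the LRRK2 list and 6 to 11 lower among neighbours at 6 h over 3 h. Scaling shifts all genes together, which by construction moves small changes past or under the threshold; other causes were not tested.

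No paired analysis was possible because the labels give no link between libraries of different times. The replicate numbers run on across the times (1 to 3, 5 to 7 and 9 to 11), so they do not show whether cultures were paired. With 2 or 3 reads a library, CD28 at 0 h is limited by depth.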
